A study of Mus musculus with 14 samples.

Results

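7 members of the Slco gene family, which encode organic anion transporting polypeptides, were followed in mouse liver: Slco1a1, Slco1a4, Slco1a5, Slco1b2, Slco2a1, Slco2b1 and Slco3a1. A gene was included when the RefSeq accession of an array probe belonged to one of these symbols, and all 7 genes were found, with 9 probes, among 19751 named genes and 39429 probes. Of the 7 genes, 6 were well above background (a flag that the scanner software sets where the spot exceeds its surroundings) in every channel of every array, and Slco1a5 was so in 1 of 28 channels. The mice were of the CD-1 strain, and their livers formed 6 groups: males and females of 3 wk (M3 and F3), of 4 wk (M4 and F4) and of 8 wk (M8 and F8). None carried a transgene or received a treatment that the labels name. Each group was represented by 2 RNA pools, with liver RNA of 5 mice per pool at 3 wk and of 6 mice per pool at 4 and 8 wk. Groups were compared directly on 2-colour arrays. Sex was compared within each age (M3/F3, M4/F4 and M8/F8), and 8 wk was compared with each younger age within males (M8/M3 and M8/M4) and within females (F8/F3 and F8/F4). Each of these 7 comparisons had 2 arrays with the dyes exchanged, 1 for each pool number, and the same pools served in several comparisons. Pooling leaves the spread between single animals unmeasured.

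Organic anion transporting polypeptides are carriers in the cell membrane that bring bile acids, bilirubin conjugates, thyroid hormones, conjugated steroids and many drugs into the cell without sodium. In hepatocytes they sit on the sinusoidal side, which faces the blood, and they feed the enzymes and the canalicular pumps that modify substrates and export them into bile. In rodents several of them are known to differ between the sexes in liver and kidney. Slco1a1, Slco1a4 and Slco1b2 are the hepatocyte uptake transporters of the mouse, Slco2b1 is a broadly expressed uptake transporter of steroid sulphates and drugs, Slco2a1 carries prostaglandins, and Slco3a1 is a widely expressed family member. In the RefSeq annotation, Slco1b2, Slco1a4, Slco1a1, Slco1a6 and Slco1a5 follow each other in that order on mouse chromosome 6, with Slco1c1 before them and the gene models Gm5724 and Gm6614 between them.

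The DNA before the transcription start is shown for 4 genes that were called with sex or age, so that the letters around each start can be read beside the RNA values. RefSeq promoter windows (build GRCm38.p6) were held for 6 of the 7 genes, at 9 start sites. The 250 bases before each start were searched on both strands for the STAT5 motif TTCNNNGAA and the HNF4 motif CAAAGTCCA. Growth hormone acts on liver genes through STAT5, and HNF4 is a transcription factor of the hepatocyte. Not printed are the window of Slco2a1, which was also called, and those of the first and second Slco2b1 starts, all without a match. The share of printed windows with a match is therefore not that of all 9 windows, of which 3 held the STAT5 motif. Capitals mark a match, and the bases run 5′ to 3′ on the strand of the gene.
Slco1a1 (chr6:141946963-141947212, minus strand): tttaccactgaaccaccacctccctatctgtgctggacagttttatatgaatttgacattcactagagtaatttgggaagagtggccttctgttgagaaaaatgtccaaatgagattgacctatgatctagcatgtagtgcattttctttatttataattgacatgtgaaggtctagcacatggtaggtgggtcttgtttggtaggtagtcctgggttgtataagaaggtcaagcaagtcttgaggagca
Slco1a4 (chr6:141856221-141856470, minus strand): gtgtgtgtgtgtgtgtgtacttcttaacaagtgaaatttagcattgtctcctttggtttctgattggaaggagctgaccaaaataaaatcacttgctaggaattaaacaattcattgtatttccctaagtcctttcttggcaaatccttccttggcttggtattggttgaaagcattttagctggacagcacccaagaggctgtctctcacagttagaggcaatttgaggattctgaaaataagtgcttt
Slco1b2 (chr6:141629268-141629517, plus strand): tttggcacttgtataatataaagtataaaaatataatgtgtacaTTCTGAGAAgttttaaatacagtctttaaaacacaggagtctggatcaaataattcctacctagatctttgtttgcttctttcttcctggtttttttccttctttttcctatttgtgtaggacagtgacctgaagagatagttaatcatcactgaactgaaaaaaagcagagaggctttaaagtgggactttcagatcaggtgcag
Slco2b1, the third start (chr7:99695810-99696059, minus strand): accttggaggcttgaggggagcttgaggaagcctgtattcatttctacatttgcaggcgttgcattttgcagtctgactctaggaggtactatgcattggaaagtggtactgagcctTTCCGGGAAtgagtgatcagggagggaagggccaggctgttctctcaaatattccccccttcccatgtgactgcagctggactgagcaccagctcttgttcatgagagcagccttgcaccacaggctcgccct

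The window of Slco1b2 held a STAT5 match from -206 to -198, counted from the start. A STAT5 match also lay from -133 to -125 at the third Slco2b1 start and from -235 to -227 at the second Slco1a5 start. The other 6 of the 9 windows, among them those of Slco1a1, Slco1a4, Slco2a1 and the first and second Slco2b1 starts, held neither motif. Of all 32851 promoter windows of this length, 7.02% held the STAT5 motif and 0.384% the HNF4 motif. A match is a description of the letters and not a site of binding. Among the 32 pairs of windows of different genes, the longest stretch shared on the same strand was 20 bases, between Slco1a4 (from -97) and the second start of Slco1a5 (from -64). The same windows also shared 2 stretches of 16 bases and 1 of 11, while no other pair shared more than 9. The longest is shown beside the difference in detection, since Slco1a4 was well above background in all 28 channels and Slco1a5 in 1.
Shared stretch: ggcttggtattggttgaaag
The 60 bases of the Slco1a4 probe, on which the largest member ratios below rest, are shown as the study's probe table gives them.
Slco1a4 probe: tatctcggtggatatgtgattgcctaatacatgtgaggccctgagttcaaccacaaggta

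Array quality was similar throughout, with 55.2% to 77.2% of the spots well above background per channel (median 66.5%) and 0 saturated spots. The arrays lay on 4 slides scanned on 2 days. All sex comparisons and M8/M3 were scanned on the first day and the other comparisons on the second, so that scan day and comparison cannot be told apart. A difference between M8/M3 and F8/F3 thus crosses scan days, and a difference between M8/M4 and F8/F4 does not. Of 4 Y-linked genes, 3 were called higher in males and Xist was called lower in males at all 3 ages, as the labels give the dyes. All 6 hepatocyte markers had signal well above background, and 0 of them were called in M8/F8. In whole liver, fewer cells of a type and less RNA per cell cannot be told apart.

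Ratios are given as log2 values, with males over females or the older over the younger age, for the brightest probe of a gene. The test was limma. A call needed an adjusted p under 0.05, a difference of more than 1.5-fold either way, and signal well above background on both arrays in 1 or both of the groups. Precision is limited by having 2 arrays for each comparison.

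The hepatocyte transporters Slco1a4 and Slco1a1 differed between the sexes at 8 wk in opposite directions. Slco1a4 was 3.34-fold lower in males and Slco1a1 was 1.58-fold higher in males. Neither was called at 3 wk or 4 wk. In M8/F8, 2 of the 6 measurable members were called, 1 higher and 1 lower, where 6.43% of all 13526 genes tested were (2.67% higher and 3.76% lower). In M3/F3, 0 of 6 members were called beside 0.517% of 13340 genes (0.180% higher and 0.337% lower), and in M4/F4 0 of 6 beside 1.59% of 13084 genes (0.619% higher and 0.971% lower). At an unadjusted p below 0.05, the limma counts were 2 members in M3/F3, beside 11.8% of the genes tested, and 2 in M4/F4, beside 21.0%.

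**Figure D1:**
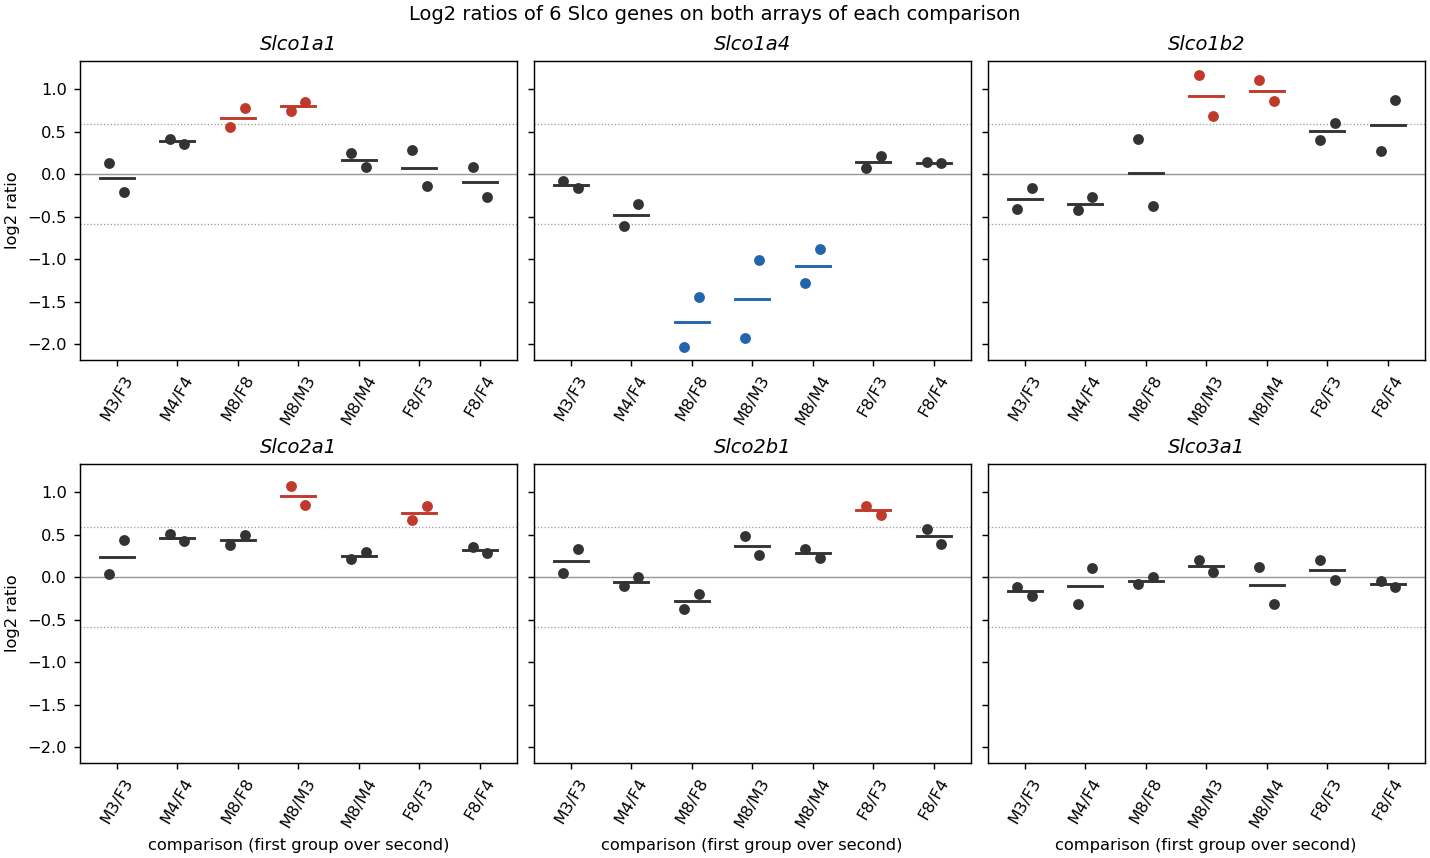
Log2 ratios of 6 Slco genes on the 2 arrays of each comparison (points; horizontal axis, comparison; vertical axis, log2 ratio of the first group over the second) with their mean (bar). Red and blue mark ratios called higher and lower, dark grey marks ratios that were not called, and dotted lines mark the fold thresholds. Both M8 over F8 points of Slco1a4 lie at or below -1.45, and those of Slco1a1 lie at or above 0.55.

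Slco1a4 transports bile acids and cardiac glycosides. Its M8/F8 ratio was -2.03 on array 1 and -1.45 on array 2, a mean of -1.74 ± 0.41 (SD, n = 2; SE of the fit 0.22; adjusted p = 0.00326). The ratio was -0.61 and -0.35 on the arrays of M4/F4 (mean -0.48, 95% interval -1.01 to 0.05; adjusted p = 0.229), and -0.08 and -0.16 on those of M3/F3 (mean -0.12, 95% interval -0.65 to 0.41). All 6 sex ratios of this gene were below 0, and the 2 taken at 8 wk lay apart from the other 4.

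In males Slco1a4 fell with age. The M8/M3 ratio was -1.93 on array 1 and -1.02 on array 2 (mean -1.47, SE 0.22, adjusted p = 0.00624), a 2.77-fold lower level at 8 wk than at 3 wk. The M8/M4 ratio was -1.28 and -0.89 (mean -1.08, SE 0.22, adjusted p = 0.0201). In females the ratio was 0.08 and 0.22 in F8/F3 (mean 0.15, 95% interval -0.38 to 0.68), and 0.14 and 0.13 in F8/F4 (mean 0.14, 95% interval -0.39 to 0.66). Every male age ratio was at or below -0.89 and every female one was above 0. M8/M3 and F8/F3 were scanned on different days, unlike M8/M4 and F8/F4. The change from 3 to 8 wk differed between the sexes by -1.62 (SE 0.31, 95% interval -2.36 to -0.87; interaction adjusted p = 0.0400). This was called for 1 of 6 members, beside 3.38% of 14901 genes (1.64% higher and 1.74% lower). From 4 to 8 wk the difference between the sexes was -1.22 (SE 0.31, adjusted p = 0.149), and 0 of 6 members were called beside 1.33% of 15163 genes (0.752% higher and 0.580% lower). The limma count at an unadjusted p below 0.05 was 2, beside 17.6% of the genes. Without array 1 of M8/M3 the M8/M3 ratio was -0.998 with an adjusted p of 0.0503, and without either array of M8/M4 the M8/M4 call was lost (adjusted p = 0.172 and 0.0773). Without 11 of the 14 arrays, each left out alone, the interaction was no longer called (adjusted p from 0.0654 to 0.160).

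Slco1a1 transports conjugated steroids, bile acids and other organic anions. Its M8/F8 ratio was 0.55 on array 1 and 0.78 on array 2, a mean of 0.66 ± 0.16 (SD, n = 2; SE 0.13; adjusted p = 0.0168). At 4 wk the ratio was 0.41 and 0.36 (mean 0.39, 95% interval 0.08 to 0.69; adjusted p = 0.109), and at 3 wk it was 0.13 and -0.21 (mean -0.04). The arrays of 3 wk lay on both sides of 0, and those of 4 and 8 wk were all above it.

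The M8/M3 ratio of Slco1a1 was 0.74 and 0.85 (mean 0.80, SE 0.13, adjusted p = 0.00841), a 1.74-fold higher level in males at 8 wk than at 3 wk. The M8/M4 ratio was 0.25 and 0.09 (mean 0.17, 95% interval -0.14 to 0.48; adjusted p = 0.527). In females both age comparisons had 1 array above 0 and 1 below it, with means of 0.07 in F8/F3 (95% interval -0.24 to 0.38) and -0.09 in F8/F4 (95% interval -0.40 to 0.22). The difference between the sexes in the change from 3 to 8 wk was 0.72 (SE 0.18, 95% interval 0.29 to 1.16) and was not called (adjusted p = 0.0876), although a fit of 6 group means called it (adjusted p = 0.00225) together with 7.42% of all genes. The M8/F8 call was lost without array 1 (0.74, adjusted p = 0.0731) or without array 2 (0.59, adjusted p = 0.135), and the M8/M3 call without array 2 (0.68, adjusted p = 0.0902).

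The third hepatocyte uptake transporter, Slco1b2, the mouse counterpart of the human OATP1B carriers of bilirubin and statins, rose with age in males. The M8/M3 ratio was 1.17 on array 1 and 0.68 on array 2 (mean 0.92, SE 0.22, adjusted p = 0.0374), and the M8/M4 ratio was 1.103 and 0.858 (mean 0.98, SE 0.22, adjusted p = 0.0302). In females the ratio was 0.41 and 0.61 in F8/F3 (mean 0.51, adjusted p = 0.210) and 0.28 and 0.87 in F8/F4 (mean 0.57, adjusted p = 0.157). All 8 age ratios were above 0. The difference between the sexes in this change was 0.42 from 3 to 8 wk (95% interval -0.34 to 1.17) and 0.41 from 4 to 8 wk (95% interval -0.35 to 1.16), and was not called. The M8/F8 ratio was 0.41 on array 1 and -0.38 on array 2 (mean 0.02, 95% interval -0.52 to 0.55). The arrays of M3/F3 gave -0.41 and -0.17 and those of M4/F4 gave -0.43 and -0.27, all below 0 and none of the means called. The male calls of Slco1b2 rested on an adjusted p near the threshold, and 13 of 29 alternatives for M8/M3 and 8 of 29 for M8/M4 ended them, with ratios of 0.60 to 1.25 and 0.80 to 1.16.

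Slco2a1, the prostaglandin transporter, which clears prostaglandins from the extracellular space, rose from 3 to 8 wk in both sexes. Its ratio was 1.07 and 0.84 in M8/M3 (mean 0.96, SE 0.10, adjusted p = 0.00128) and 0.68 and 0.83 in F8/F3 (mean 0.75, SE 0.10, adjusted p = 0.00317). This was a 1.94-fold rise in males and a 1.69-fold rise in females, and the difference between them was 0.20 (95% interval -0.12 to 0.52). From 4 to 8 wk the ratio was 0.21 and 0.30 in males (mean 0.25) and 0.35 and 0.29 in females (mean 0.32), and neither was called. Males were higher than females by less than the fold threshold, with 0.50 and 0.42 in M4/F4 (mean 0.46, adjusted p = 0.0207) and 0.38 and 0.49 in M8/F8 (mean 0.43, adjusted p = 0.0261). At 3 wk the arrays gave 0.03 and 0.44 (mean 0.24, adjusted p = 0.171).

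Slco2b1, measured by 2 probes, rose with age in females. The brighter probe gave 0.84 and 0.73 in F8/F3 (mean 0.79, SE 0.04, adjusted p = 0.000121), a 1.72-fold rise, and the other probe gave 0.71 and 0.61 (mean 0.66, adjusted p = 0.00231). In F8/F4 the brighter probe gave 0.57 and 0.39 (mean 0.48, adjusted p = 0.000486), and in males it gave 0.49 and 0.26 in M8/M3 (mean 0.37, adjusted p = 0.00120) and 0.33 and 0.22 in M8/M4 (mean 0.28, adjusted p = 0.00355), all below the fold threshold. All 8 age ratios of this probe were above 0.

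The rise of Slco2b1 from 3 to 8 wk was larger in females by the brighter probe, with a difference of -0.42 (male minus female change; SE 0.05, adjusted p = 0.00974) that was below the fold threshold. The other probe gave a difference of -0.21 (95% interval -0.47 to 0.05; adjusted p = 0.375). The sex ratio of the brighter probe was 0.05 and 0.33 in M3/F3 (mean 0.19, adjusted p = 0.0153) and -0.11 and 0.00 in M4/F4 (mean -0.05, adjusted p = 0.428), so that its sign at 3 wk was opposite to that at 8 wk. The M8/F8 ratio was -0.38 and -0.19 with the brighter probe (mean -0.29, adjusted p = 0.00316) and -0.27 and -0.02 with the other (mean -0.14, adjusted p = 0.314). The small error of the brighter probe rests on the dye term of the fit. Without that term the adjusted p was 0.256 for M3/F3, 0.0859 for M8/F8 and 0.157 for the difference between the sexes, and 0.00128 for F8/F3.

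Slco3a1, also measured by 2 probes, was called in 0 comparisons by either probe with limma, and 1 of its 18 tests had an unadjusted p below 0.05. The brighter probe had mean ratios from -0.17 in M3/F3 to 0.13 in M8/M3, with the arrays of 4 of the 7 comparisons on both sides of 0, and its 95% interval in M8/F8 was -0.26 to 0.18. The dimmer probe gave its lowest ratio in M8/M4, -0.65 and -0.22 (mean -0.44, adjusted p = 0.0588). Slco1a5 is not described further, since its ratio was recorded as exactly 0 on 13 of 14 arrays and its signal was not well above background in 27 of 28 channels.

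By comparison, 4 of 6 measurable members were called in M8/M3 (3 higher and 1 lower), where 17.9% of 14448 genes were, 7.84% higher and 10.0% lower. In M8/M4 it was 2 of 6 (1 higher and 1 lower) beside 10.8% of 14940 genes (4.46% higher and 6.39% lower). In F8/F3 2 of 6 were called, both higher, beside 11.7% of 14751 genes (5.08% higher and 6.66% lower). In F8/F4 it was 0 of 6 beside 6.02% of 14911 genes (2.29% higher and 3.73% lower), with 3 members at an unadjusted p below 0.05 beside 39.4% of the genes. The 6 members had a median log2 ratio of 0.58 in M8/M3, beside 0.01 over all genes tested, and of 0.33 in F8/F3, beside 0.02. In M8/F8 the median was -0.01, beside 0.00 over all genes. These comparisons share pools, so that their counts are not independent of each other.

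**Figure D2:**
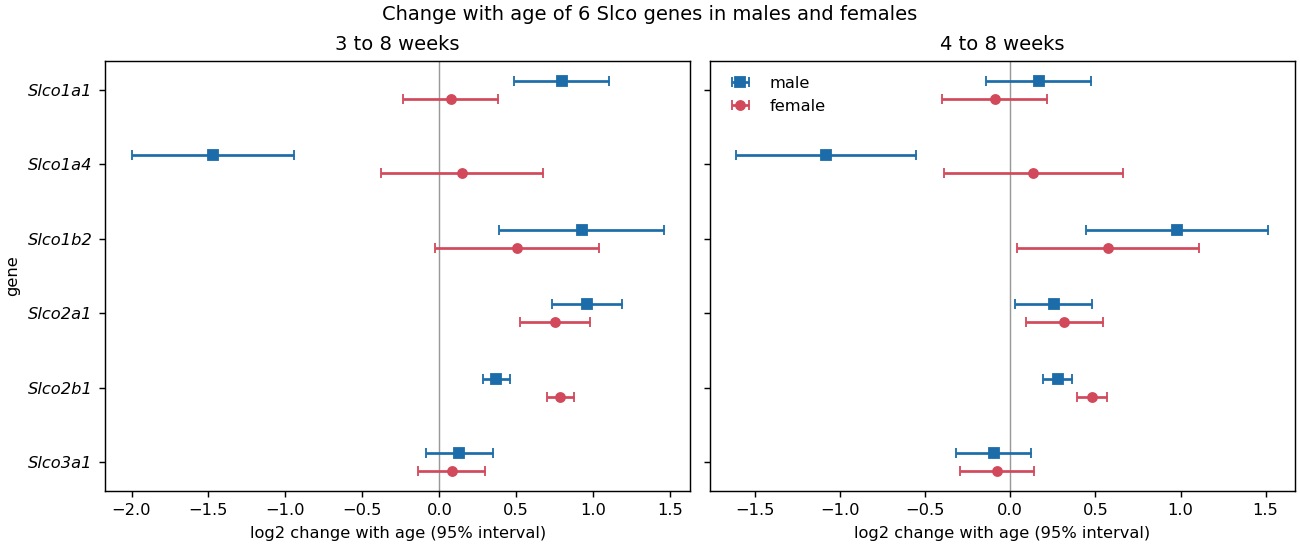
Log2 change with age (horizontal axis) of 6 Slco genes (vertical axis) in males (blue squares) and females (red circles), from 3 to 8 wk on the left and from 4 to 8 wk on the right, with 95% intervals of the limma fit. Slco1a4 lies at -1.47 and -1.08 in males and at 0.15 and 0.14 in females, while Slco1b2, Slco2a1 and Slco2b1 lie above 0 in both sexes.

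The ratios were also combined by least squares into a level for each pool, relative to the mean of the 6 groups of a gene. Slco1a4 was at 0.49 ± 0.05 in F8, 0.34 ± 0.16 in F3, 0.34 ± 0.06 in F4, 0.22 ± 0.24 in M3, -0.15 ± 0.12 in M4 and -1.24 ± 0.39 in M8 (log2, mean ± SD of 2 pools). The first 4 of these groups overlapped with their neighbours in the order (the pools of M3 lay at 0.39 and 0.05), and M4 and then M8 lay apart below them. The groups spanned 3.32-fold.

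For Slco1a1 the order was M8 at 0.49 ± 0.03, M4 at 0.32 ± 0.07, F4 at -0.08 ± 0.10, F8 at -0.17 ± 0.17, F3 at -0.25 ± 0.14 and M3 at -0.30 ± 0.11. The male groups of 4 and 8 wk lay apart from each other and from the rest, and the last 4 groups overlapped with their neighbours. The span was 1.73-fold.

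For Slco1b2 the order was M8 at 0.52 ± 0.24, F8 at 0.47 ± 0.25, F3 at -0.06 ± 0.05, F4 at -0.10 ± 0.17, M3 at -0.38 ± 0.17 and M4 at -0.46 ± 0.07, a span of 1.97-fold. The groups of 8 wk overlapped, as did F3 with F4 and M3 with M4, and these 3 pairs lay apart from each other.

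For Slco2a1 no neighbours overlapped, and the order was M8 at 0.59 ± 0.02, M4 at 0.33 ± 0.04, F8 at 0.17 ± 0.03, F4 at -0.14 ± 0.01, M3 at -0.36 ± 0.17 and F3 at -0.59 ± 0.13, a span of 2.28-fold. For the brighter probe of Slco2b1 the order was F8 at 0.45 ± 0.13, M8 at 0.18 ± 0.01, F4 at -0.03 ± 0.01, M4 at -0.09 ± 0.07, M3 at -0.17 ± 0.15 and F3 at -0.35 ± 0.05, with M4 and M3 overlapping and a span of 1.74-fold. Its other probe gave the same order with a span of 1.59-fold, and there the last 4 groups overlapped with their neighbours. Slco3a1 spanned 1.24-fold.

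**Figure D3:**
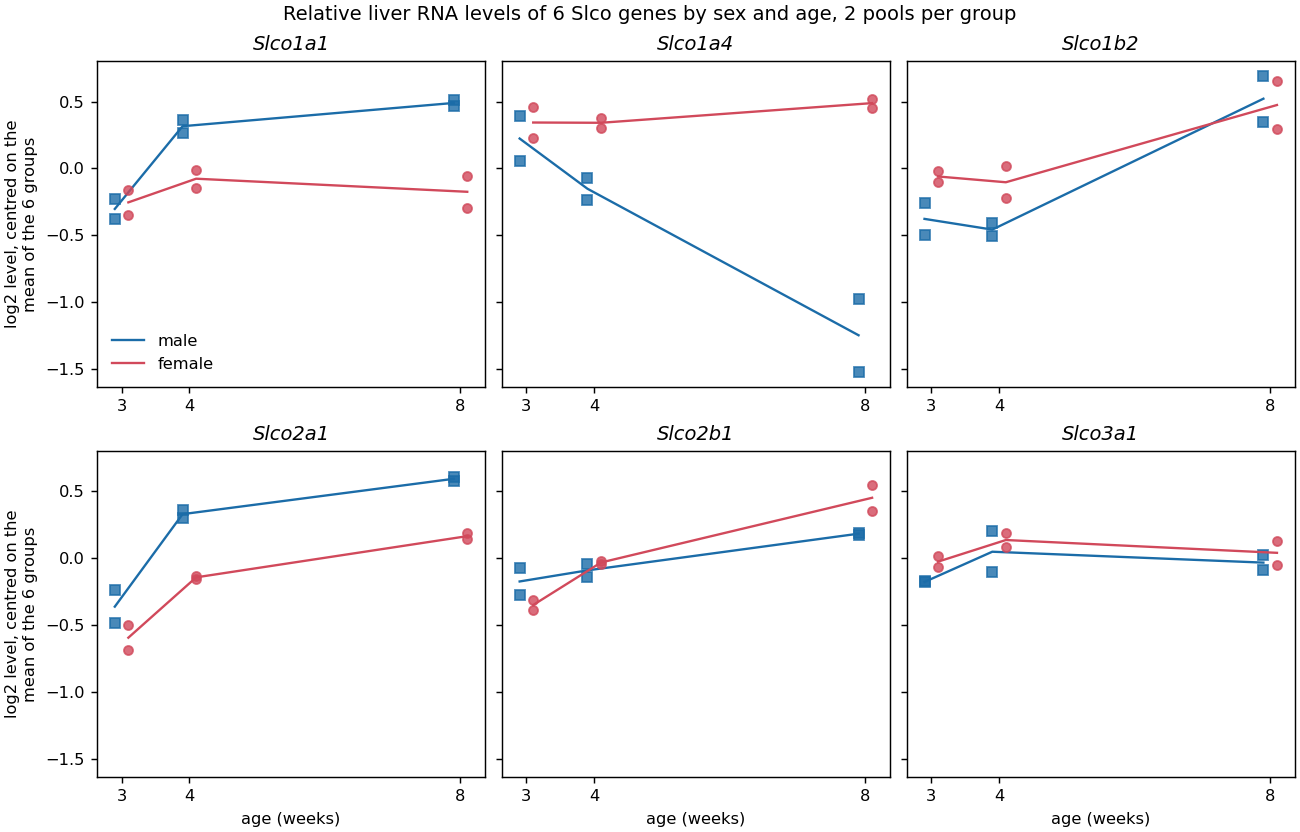
Log2 level of 6 Slco genes in each pool (points; vertical axis, relative to the mean of the 6 groups of the gene) against age in weeks (horizontal axis), in males (blue squares) and females (red circles), with lines through the mean of both pools. The 8-wk male pools of Slco1a4 lie at -1.52 and -0.97, below its other 10 pools, and the male and female pools of Slco1b2 overlap at 8 wk.

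The 5 genes with the pool levels most like those of each sex-different member were taken from 3547 genes called in some comparison, by Pearson's correlation over the 12 pools, which came from the same 14 arrays. For Slco1a1 they were 1700066M21Rik (r = 0.950), the cytochrome P450 Cyp2j9 (r = 0.944), the ephrin Efna1 (r = 0.930), the carboxylesterase Ces2a (r = 0.923) and the epoxide hydrolase Ephx1 (r = 0.918). Cyp2j9 had an M8/F8 ratio of 0.89 and an F8/F3 ratio of 0.28. For Slco1a4 they were the cytochromes P450 Cyp2c39 (r = 0.964) and Cyp2c37 (r = 0.957), the dendritic cell receptor Clec9a (r = 0.962), Cdpf1 (r = 0.960) and the T cell receptor subunit Cd3g (r = 0.958). Cyp2c37 had an M8/F8 ratio of -3.02 and an M8/M3 ratio of -1.98. These correlations describe 12 pools and carry no test.

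Markers of other liver cells moved with some of these results. Of 5 Kupffer cell and macrophage markers with a probe, 3 (Clec4f, Adgre1 and Marco) were called lower in M8/F8 and 0 higher, with ratios from -1.05 to -0.54, and 2 were called lower in each of M8/M3 and M8/M4 and 1 in each of M4/F4, F8/F3 and F8/F4. Their summed signal was 19317 and 16442 in the pools of M8, 26703 and 26682 in those of F8, 26014 and 24725 in those of M3 and 30547 and 30823 in those of F3, and each of them was well above background. This moved with the M8/F8, M8/M3 and M8/M4 ratios of Slco1a4. In females the summed signal was also lower at 8 wk than at 3 wk, and the F8/F3 ratio of Slco1a4 was 0.15. The part of these markers in any of the Slco1a4 ratios was not tested. Of 7 endothelial markers, 0 were called in M8/F8, and 1 was called lower and 0 higher in both M8/M3 and F8/F3, with medians of -0.20 and -0.18. The summed endothelial signal was 30370 and 29182 in M8, 35366 and 33651 in M3, 34240 and 32564 in F8 and 36332 and 36831 in F3, lower at 8 wk in both sexes. Slco2a1, which endothelial cells also express, was higher at 8 wk in both sexes, and the part of these cells in its ratios was not tested. In M8/F8, 0 of 5 bile duct markers and 0 of 4 measurable stellate and mesenchymal markers were called, and 1 of 3 erythroid markers, Alas2, was called higher at 1.89. The median ratio of the bile duct markers was 0.43 in both M8/F8 and M4/F4, with 1 called higher in M4/F4. Their summed signal was 4667 and 6118 in M8 against 3396 and 3738 in F8, and 7908 and 5736 in M4 against 3674 and 3772 in F4. At 3 wk it was 8482 and 6640 in M3 against 4892 and 5759 in F3. The pools of males thus lay above those of females at each age. The ratio of Slco1a1 was 0.66 in M8/F8 and -0.04 in M3/F3, and the part of these markers in its ratios was not tested. In M8/M3, 2 of 5 bile duct markers were called lower, as were 2 of 5 stellate and mesenchymal markers and 1 of 3 erythroid markers (Hba-a1), with Alas2 higher at 1.37. In F8/F3, 1 of 5, 1 of 5 and 1 of 3 of these markers were called lower. Of 6 hepatocyte markers, 1 was called higher and 1 lower in M8/M3, and 0 in F8/F3.

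Of 8 other Slco genes, all had a probe, but only Slco6b1 was well above background in M8/F8. It was called lower in males, with -0.65 and -0.62 (mean -0.64, SE 0.07, adjusted p = 0.00214), and was also called lower in M8/M3 at -0.71 and in M8/M4 at -0.89. Its male and female changes with age differed by -0.61 from 3 to 8 wk (adjusted p = 0.0253) and by -0.70 from 4 to 8 wk (adjusted p = 0.0305), calls that were lost under 10 and 19 of 29 alternatives. Its gene name came from a probe table of the study. With normexp background correction and loess normalization of the median signals in place of the deposited ratio, its M8/F8 ratio was -0.25. The difference from 3 to 8 wk was then -0.05, and neither of them was called. Slco1a6 and Slco1c1, of the same chromosomal cluster as Slco1a1 and Slco1a4, were well above background in 1 and 7 of 28 channels.

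Transporters that work beside the Slco proteins were compared in the same way. On the sinusoidal side, 0 of 3 other uptake transporters were called in M8/F8, with ratios from -0.17 for Slc10a1, the sodium-dependent bile acid carrier, to 0.19 for Slc22a7, an organic anion transporter. In M8/M3 1 of the 3 was called, the carnitine transporter Slc22a5, higher at 0.97. In F8/F3 Slc22a5 was called higher at 0.98 and Slc22a7 lower at -0.78. Of 9 measurable efflux transporters (10 listed), 1 was called higher and 1 lower in M8/F8. Abcg2, an exporter of conjugates and drugs, was at 1.26 and 1.32 in M8/F8 (mean 1.29, SE 0.06, adjusted p = 0.000107), and its change from 3 to 8 wk differed between the sexes by 1.12 (adjusted p = 0.00177) and from 4 to 8 wk by 0.75 (adjusted p = 0.0108), the latter lost when shared pools entered the covariance (adjusted p = 0.0626) and without replicate 1 of F8/F4 (adjusted p = 0.0503). Abcb1a, a P-glycoprotein drug exporter, was at -1.18 and -1.09 (mean -1.13, SE 0.12, adjusted p = 0.00160), and its change from 3 to 8 wk differed by -1.17 (adjusted p = 0.0160), a call lost without either F8/F3 array (adjusted p = 0.0827 and 0.0833). The basolateral exporter Abcc3 was called higher at 8 wk than at 3 wk in both sexes, at 1.72 in males and 1.22 in females. The bile acid export pump Abcb11 was called in 0 of the 7 comparisons, with mean ratios from -0.40 to 0.47. Of the 3 scaffold genes, which include Pdzk1, the anchor of Slco1a1 in the membrane, 0 were called in M8/F8, M8/M3 or F8/F3.

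**Figure D4:**
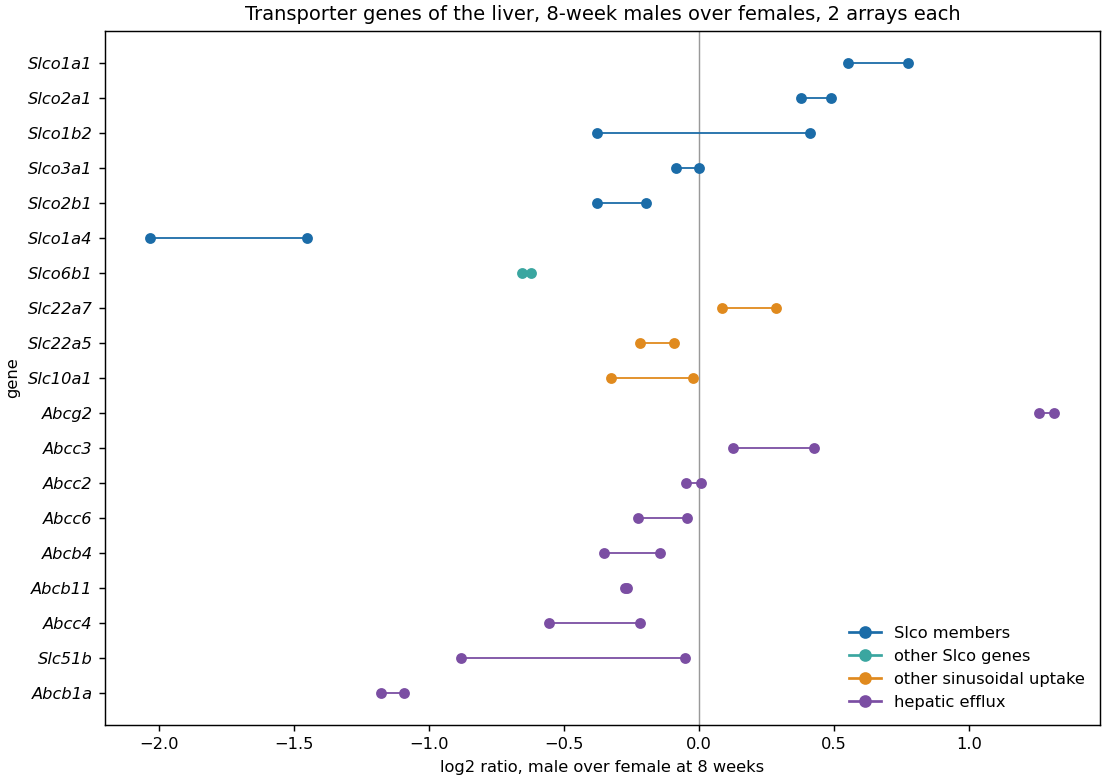
Log2 ratio of 8-wk males over females (horizontal axis) on the 2 arrays (points joined by a line) for the Slco members, another Slco gene, other sinusoidal uptake transporters and efflux transporters (vertical axis, colours). Slco1a4 and Abcb1a lie lowest and Abcg2 lies highest, with both arrays of each on the same side of 0.

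Among 10 transcription factors that regulate hepatic transporters, 1 was called in M8/F8. Nr1i3, the constitutive androstane receptor, was at -0.50 and -0.74 (mean -0.62, SE 0.08, adjusted p = 0.00383). The pregnane X receptor gene Nr1i2 was at -0.28 (adjusted p = 0.137), and Hnf4a was at 0.03. Of 9 genes of the growth hormone pathway, 2 were called lower in M8/F8 and 0 higher. The prolactin receptor gene Prlr was at -1.61 and -1.75 (mean -1.68, SE 0.12, adjusted p = 0.000439), and its change from 3 to 8 wk differed between the sexes by -1.58 (adjusted p = 0.00724). Cux2, a female-predominant repressor, was called lower in males (adjusted p = 0.000118). It was well above background in 1 of 6 channels of M8 and in 6 of 6 of F8, so that no fold is given. Igf1, the growth hormone target that circulates as a growth factor, was at -0.50 in M8/F8, below the fold threshold, and its change from 3 to 8 wk differed by -0.60 (adjusted p = 0.00337), a call that was lost without the dye term (adjusted p = 0.315). Stat5b, the transducer itself, was at -0.02 in M8/F8.

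Of 8 measurable genes of prostaglandin handling, listed beside the transporter Slco2a1, 2 were called lower in M8/F8 and 0 higher. Hpgd, which inactivates prostaglandins once they are inside the cell, was at -0.97 and -0.64 in M8/F8 (mean -0.81, SE 0.08, adjusted p = 0.00105), and at -0.77 in M8/M3 and 0.20 in F8/F3. Its change from 3 to 8 wk differed between the sexes by -0.97 (adjusted p = 0.00724) and from 4 to 8 wk by -0.80 (adjusted p = 0.0237), the latter lost under 13 of 29 alternatives. The prostaglandin E receptor gene Ptger3 was at -1.16 and -2.70 in M8/F8 (mean -1.93, SE 0.38, adjusted p = 0.0173), and without array 2 this call was lost (-1.35, adjusted p = 0.168). Ptgr1, a reductase of prostaglandins and leukotrienes, was at -1.03 in M8/M3 and -0.70 in F8/F3, both called. In M8/M3, where Slco2a1 rose by 0.96, Hpgd fell.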

How the data were processed

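Liver RNA was compared on 14 Agilent 2-colour arrays, with the red and green dyes as the labels give them. The methods of the study give the opposite dyes for both replicates of M3/F3. Per the file headers, the authors used Agilent Feature Extraction 10.7.1.1, which subtracts background, normalizes the dyes within each array and writes a log10 ratio of red over green, its modelled error score and the intensity of each spot. The deposited series table held the same log10 ratios, each column with a median of 0 and a largest difference of 0. The authors' own comparison values were not used, and no columns of other samples were present.

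The members and gene lists were chosen with earlier results of these data known. Of 44397 spots, 43020 were not controls, up to 10 non-uniform spots per array were left out, and spots of a probe were averaged to 39429 probes, 26055 of which were named through their RefSeq accession. Deposited log10 ratios were turned to log2 values of males over females or of the older over the younger age. limma 3.58.1 in R 4.3.3 was fitted with 7 comparisons and a dye term (6 residual degrees of freedom). p-values were adjusted by Benjamini-Hochberg over all probes and comparisons together, or within each difference between the sexes. All tests were two-sided. Arrays entered as independent although they share pools, so p-values measure only the spread between 2 pools. Nothing gives the depth of an array beyond its signals. Promoters came from RefSeq.

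Named were all members, the 5 genes most like each member called in M8/F8, and list genes called in M8/F8 or between the sexes. Other list genes were named after their values were seen. Some list genes and 1 motif are not reported here. The lists cover other Slco genes, sinusoidal uptake, efflux, scaffolds, transcriptional regulators, the growth hormone pathway, prostaglandin handling, sex-linked genes and the markers of 6 liver cell types. Alternatives were normexp background correction (offset 50, on median signals, since mean signals were not used here) with loess normalization in place of the deposited ratio, the series table, other filters and thresholds, error weighting with the p threshold of the study, other designs and blocks, each array left out, and a fit over bright probes, chosen after seeing the data. The scripts were tested on simulated data.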

Additional observations from a re-analysis of the deposited data

Results flagged for a closer look

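The change of Slco1a4 between 3 and 8 wk differed between males and females by -1.62 on the log2 scale (SE 0.31, interaction adjusted p = 0.0400 with limma). The male ratios were -1.93 and -1.02, and the female ratios, from arrays scanned on another day, were 0.08 and 0.22. It was flagged because the test of the difference between the sexes passed the threshold. This call was lost under 12 of 29 alternatives, 11 of which left out 1 array, with adjusted p up to 0.160. With 1 term per group in place of 1 per comparison, the difference from 4 to 8 wk was called as well (adjusted p = 0.00380), beside 4.41% of all genes, where 1.33% were called with 1 term per comparison.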

How the results depend on the processing

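Of 1584 values of the 54 member results under the alternatives, 1528 kept their side of the threshold, 45 lost a call and 11 gained one. A change of direction was counted for members only where a call was involved, and 0 were found. Ratios that were not called did change direction in places, as for Slco1a1 in M3/F3 (-0.30 to 0.21). Of 580 values for 20 results of list genes, 500 kept their direction and their call, 80 lost a call and 0 reversed. Without a fold threshold, the called members numbered 1 in M3/F3 (2.88% of all genes), 1 in M4/F4 (7.91%), 4 in M8/F8 (21.8%), 3 in M8/M4 (29.6%), 5 in M8/M3 (42.0%), 1 in F8/F4 (21.3%) and 2 for the difference between the sexes from 3 to 8 wk (6.52%). The unadjusted p threshold of the study, 1e-04, was also applied to the limma p-values, which are not those that the study used. The numbers were then 1 in M8/M3 (9.77% of all genes) and F8/F3 (5.79%), 0 in M8/F8 (2.70%) and M8/M4 (4.91%) and 0 for that difference (1.28%). With the error-weighted average and that threshold together, 2 members were called in M8/F8 (5.69%), 4 in M8/M3 (17.0%), 2 in M8/M4 (10.5%) and 2 in F8/F3 (11.9%). For the differences between the sexes, 1 member was then called from 3 to 8 wk (3.50%) and 1 from 4 to 8 wk (2.15%). With 6 group means, 2 members were called for the difference from 3 to 8 wk (7.42%) and 1 for that from 4 to 8 wk (4.41%). With the slide as a fixed block, 1 member was called in M8/M4 (10.2%) and 3 in M8/M3 (17.2%), with the Slco1b2 calls lost in both. Leaving out 1 array at a time gave 1 to 2 called members in M8/F8 (4.55% to 6.19% of all genes), 2 to 4 in M8/M3 (13.1% to 17.8%), 2 in F8/F3 (8.07% to 11.5%), 0 to 2 in M8/M4 (6.48% to 10.6%), 0 to 1 for the difference from 3 to 8 wk (1.34% to 3.15%) and 0 in the others (0.367% to 5.91%). For these the cause was not tested, apart from the smaller number of arrays or the other threshold itself.

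The replicate numbers were also fitted as a block. The replicate block gave 2 called members in M8/F8 (6.58% of all genes), M8/M4 (10.8%) and F8/F3 (11.6%), 3 in M8/M3 (18.0%) and 1 for the difference from 3 to 8 wk (3.59%), and the call lost was Slco1b2 in M8/M3 (adjusted p = 0.0573). Over 21650 probes, the replicate differences of the 10 pairs of comparisons that share a group correlated from -0.530 to 0.679, all 10 with the sign that a pool shared under 1 number gives, and those of the 11 pairs that share none from -0.291 to 0.219. The numbers were thus taken to mark the same pool of a group, and not to pair pools of different groups. Entering the shared pools in the covariance changed no call of a member. Signal over background limited Slco1a5 and 7 of the 8 other Slco genes in M8/F8.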
